A study of Mus musculus with 14 samples.

Results

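The genes described here are the 96 genes that stood highest in the dorsal hippocampus of untrained THY-Tau22 mice over untrained wild-type (WT) mice, and the question asked of them was which way they went in trained mice of a separate experiment. They were selected on measured values. In the table of the untrained mice, genes whose mean over the 5 libraries reached 100 normalized counts were ranked by the lower THY-Tau22 value divided by the highest WT value. The first 100 of 12352 genes were taken, and of 8 genes set aside by name (Gfap, C4b, Cd74, Itgax, Ttr, Kcne2, Mfrp, Kl) the 4 that fell among them (Gfap, C4b, Cd74 and Kl) were left out. The 96 members made up 0.777% of the genes past that floor. A ratio above 1, which means no overlap between the untrained groups, was held by 944 genes (7.64%).

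All mice were males labelled as C57BL6 and aged 8 months. THY-Tau22 mice, per the study's methods heterozygous and of C57BL6/J background, carry a mutated human tau gene in neurons under the Thy1.2 promoter, and untrained WT (n = 3) and untrained THY-Tau22 (n = 2) were compared at rest. In the learning experiment WT VEH_HC (n = 3) were WT given saline and kept in the home cage, WT VEH (n = 2) were WT given saline and trained in the Morris water maze, TAU VEH (n = 2) were trained THY-Tau22 given the empty carbon nanosphere CSP, and TAU MOL (n = 2) were trained THY-Tau22 given CSP-TTK21, an activator of the acetyltransferases CBP and p300. The vehicle thus differed between WT VEH and TAU VEH along with the genotype, so that these cannot be told apart. Per the study's methods, 3 samples of the learning experiment, from mice of the same litter, were excluded for great variability by criteria decided afterwards. The labels do not say that each library is a separate animal. The p-values measure the spread between the libraries kept only.

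Tau pathology in mouse hippocampus is known to come with reactive microglia and astrocytes. Microglia are the resident macrophages of the brain and carry phagocytic receptors, lysosomal proteins and the integrin and Fc receptor machinery of myeloid cells. The choroid plexus, an epithelium that secretes cerebrospinal fluid, lies against the hippocampus and can be carried along in dissection.

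By known role the members fell into 7 groups, assigned after the values were seen: Thy1 itself, 29 myeloid and immune genes, 18 neuronal receptors, channels, adhesion genes and enzymes, 10 ribosomal RNA-related and short noncoding loci, 9 genes of matrix, basement membrane and guidance, 22 transporters, enzymes and others, and 7 predicted genes and clones. By annotation 85 were protein coding, 4 were pseudogenes, 4 were microRNA loci, 2 were processed transcripts and 1 was a lincRNA. They lay on 20 chromosomes, with at most 10 on any of them. Their median level in the learning libraries was 6.54 CPM (counts scaled to a common library total with TMM factors), beside 13.7 CPM over all genes tested. Their median exonic GC content was 51.6% beside 50.0%, and their median exonic length 4010 bases beside 3460 bases. Among the members 46 (47.9%) had in untrained mice a mean under 200 normalized counts, beside 10.7% of the genes past the floor, so that counting error weighs more in the members than in most genes. Other annotated genes overlapped 42 members (43.8%, beside 42.5% of all genes tested). The library kit does not mark strand, so reads of a member and of a gene on the other strand cannot be told apart.

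The short noncoding members are shown first because their sequences tell which of them resemble each other. Coordinates and sequences are from NCBIM37 (mm9). The pseudogenes Gm12563 (chr3:37380414-37380515, plus strand, 102 bases) and Gm15662 (chr10:104675190-104675348, plus strand, 159 bases) are copies of a stretch of the large ribosomal RNA, and capitals mark the 29 bases that they have in common without a break.
Gm12563: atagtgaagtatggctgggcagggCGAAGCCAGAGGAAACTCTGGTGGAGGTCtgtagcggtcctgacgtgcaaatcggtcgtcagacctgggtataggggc
Gm15662: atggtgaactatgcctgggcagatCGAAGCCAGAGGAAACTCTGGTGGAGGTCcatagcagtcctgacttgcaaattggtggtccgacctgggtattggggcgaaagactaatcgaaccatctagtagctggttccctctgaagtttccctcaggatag

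The pseudogene Gm12913 (chr4:78419581-78420125, minus strand) and AY036118 (chr17:39985048-39985772, minus strand) carry in antisense the end of the small ribosomal RNA. A stretch of each is given, with the 30 bases they share in capitals.
Gm12913: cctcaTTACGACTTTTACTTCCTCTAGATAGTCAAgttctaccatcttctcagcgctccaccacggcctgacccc
AY036118: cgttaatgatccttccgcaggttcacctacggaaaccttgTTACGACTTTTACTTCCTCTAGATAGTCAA

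The loci Mir5102 (chr7:137977951-137978037, plus strand, 87 bases) and Mir5105 (chr5:147072579-147072660, plus strand, 82 bases) are printed whole, without capitals, since neither shares a run over 10 bases on the same strand with any of the other 9 loci.
Mir5102: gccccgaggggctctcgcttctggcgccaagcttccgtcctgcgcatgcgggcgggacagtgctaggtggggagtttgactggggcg
Mir5105: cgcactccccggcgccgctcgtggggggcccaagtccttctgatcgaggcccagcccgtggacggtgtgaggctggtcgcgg

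Lars2, the mitochondrial leucyl-tRNA synthetase gene, and Gm15564 share a run of 51 bases, the longest among the 10 and about the length of a read. The runs in capitals are shorter than a read. Per the study's methods only uniquely aligned reads were counted, so a read that fits such copies equally well would not enter the counts of either, and values of near-identical loci are uncertain.

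The values that chose the members are given as a description. The ratio of the lower THY-Tau22 to the highest WT value ran from 1.157 to 2.104 with a median of 1.244. The highest ratios after Thy1 belonged to the peptide transporter Slc15a3 (1.667), Gm12913 (1.634), the angiotensin-converting enzyme gene Ace (1.575), the transcription factor gene Zbtb16 (1.544) and AY036118 (1.527). Next came the checkpoint receptor Lag3 (1.500), the chemokine Ccl6 (1.498), the phosphodiesterase Pde11a (1.479) and the membrane repair gene Myof (1.449). Just inside the limit were Rac2, Nid2 and Sema3d, with ratios of 1.158, 1.158 and 1.157. Just outside were 4930570G19Rik, Arl15 and F5, with ratios of 1.157, 1.156 and 1.155.

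The THY-Tau22 libraries of the untrained table often differed from each other. AY036118 reached 593 CPM in the first and 198 CPM in the second, beside 112 to 130 CPM in the WT libraries. The bicarbonate transporter Slc4a5 went the other way, with 2.76 CPM in the first and 8.18 CPM in the second, beside 1.57 to 2.36 CPM in WT. In both cases the value that set the rank was the lower one. The NMDA receptor subunit Grin2a had 34.0, 15.8 and 31.1 CPM in WT and 39.7 and 47.4 CPM in THY-Tau22, so that 1 WT library stood well below the others.

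All 96 members could be tested in the learning experiment. With edgeR's quasi-likelihood test over 9 libraries and 16820 genes, a call needed a Benjamini-Hochberg adjusted p below 0.05 together with a log2 fold change beyond 0.2 in either direction. In TAU VEH against WT VEH, 12 members (12.5%) were called higher, beside 3.61% of all genes tested, and 6 members (6.25%) were called lower, beside 10.8%. The log2 fold change was above 0 for 73 members (76.0%), beside 50.7% of all genes, and its median was 0.25 beside 0.004. Scaled by library size alone, 31 members were called higher and 5 lower, beside 15.3% and 6.06% of all genes, and the median was 0.397 beside 0.151.

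In TAU MOL against WT VEH, 5 members (5.21%) were called higher, beside 0.612% of all genes, and 5 (5.21%) were called lower, beside 5.02%. The log2 fold change was above 0 for 74 members (77.1%, beside 50.4%), with a median of 0.207 beside 0.002. With library size alone these were 12 higher and 4 lower, beside 4.50% and 1.94% of all genes. These comparisons share their WT VEH libraries. Called higher in both were 4 members, Thy1, Lyz2, Dgkh and Irf8, and called lower in both were 5. With GC content and length corrected, the TAU MOL comparison no longer called Dgkh, Irf8 and Slc11a1 (edgeR adjusted p = 0.0696, 0.111 and 0.0841) and of the 5 lower it called Abca4 alone. Irf8 was also lost there with the replicate number as a block (edgeR adjusted p = 0.0526). DESeq2 called Thy1, Dgkh and Mpeg1 higher in TAU MOL than WT VEH, and Ace lower. It gave no adjusted p there to Lyz2, Irf8, Slc11a1, Slc4a5, Abca4, Sema3b and Nid2.

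**Figure D1:**
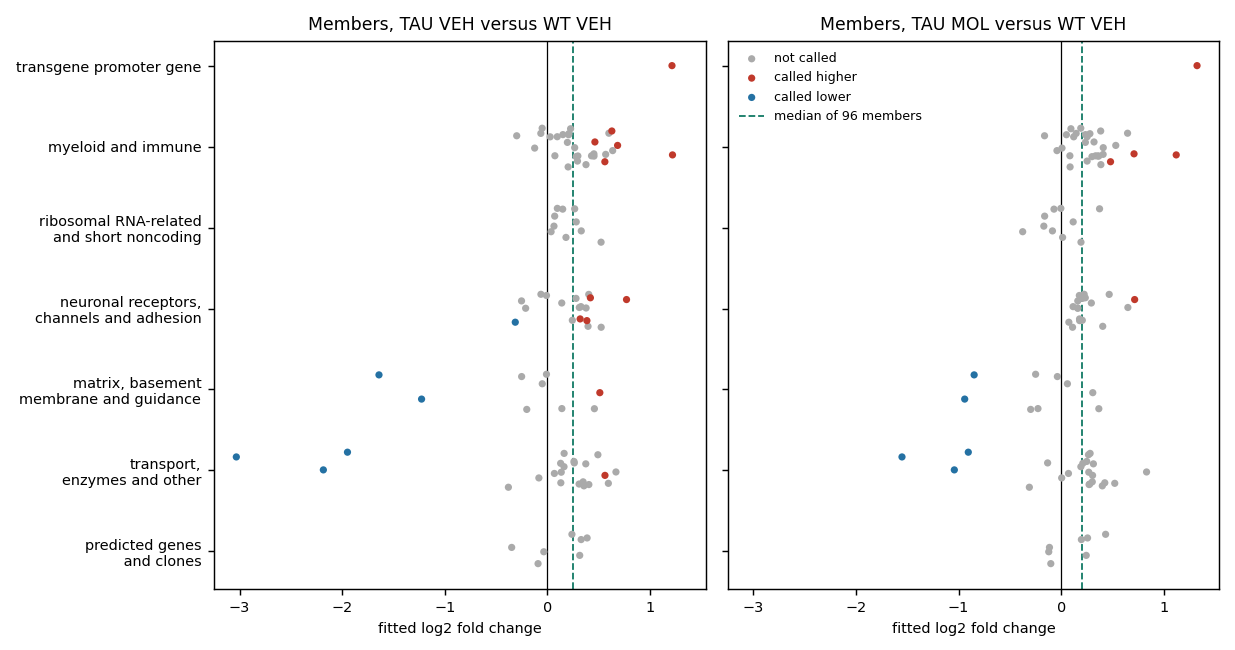
Fitted log2 fold change of each of the 96 members in TAU VEH (left) and TAU MOL (right) against WT VEH, 1 point per gene, with 1 line of points per role group. Red points were called higher, blue points lower and grey points neither, the dashed line is the median of the members (0.25 and 0.207), most points of the myeloid and neuronal groups lie to the right of 0, and the 5 points farthest to the left are Slc4a5, Abca4, Ace, Sema3b and Nid2.

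A count that uses all 9 learning libraries asks how often the 4 TAU libraries lay above the 5 WT libraries without overlap. This held for 20 members (20.8%), beside 10.0% of all genes tested, and the opposite held for 2 members (2.08%), Rhbdf1 and Crtap, beside 13.3%. The 20 included 10 of the 29 myeloid and immune genes, 4 of the 18 neuronal genes, 4 of the 22 transporters and enzymes, Sema3d and Thy1, and none of the 10 ribosomal RNA-related and short noncoding loci.

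Thy1, a surface glycoprotein of neurons whose promoter drives the transgene, ranked first among the members by the untrained ratio that chose them. In the untrained table it had 831, 874 and 795 CPM in WT and 2350 and 1840 CPM in THY-Tau22. In the learning table WT VEH_HC had 913, 899 and 884 CPM, WT VEH 786 and 855 CPM, TAU VEH 1800 and 2000 CPM, and TAU MOL 2000 and 2110 CPM. No TAU library came near a WT library. The log2 fold change was 1.21 ± 0.07 (SE, n = 2 and 2, edgeR adjusted p = 3.39e-05) in TAU VEH and 1.32 ± 0.07 (edgeR adjusted p = 1.3e-05) in TAU MOL, both against WT VEH. A count per gene does not separate reads of the mouse gene from reads of any Thy1 sequence in the transgene.

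Among the myeloid and immune members most fold changes were positive and few passed the test. For TAU VEH against WT VEH 5 of 29 (17.2%) were called higher and none lower, 25 had a log2 fold change above 0, and the median was 0.279. Of all genes 3.61% were called higher, 10.8% lower, and 50.7% were above 0. For TAU MOL against WT VEH 3 (10.3%) were called higher and none lower, 27 were above 0, and the median was 0.280. Of all genes 0.612% were called higher there, 5.02% lower, and 50.4% were above 0. More cells of a type and more RNA per cell cannot be told apart in bulk tissue.

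Lyz2, the lysozyme of macrophages, had 3.17 and 3.10 CPM in WT VEH, 6.28 and 8.45 CPM in TAU VEH and 6.63 and 7.01 CPM in TAU MOL. In WT VEH_HC it had 2.82, 3.75 and 2.93 CPM, so every TAU library was above every WT library. It rose by 1.22 ± 0.18 on the log2 scale in TAU VEH (edgeR adjusted p = 0.00167) and by 1.12 ± 0.18 in TAU MOL (edgeR adjusted p = 0.00996). The untrained values, which chose it, were 6.81 to 7.99 CPM in WT and 11.1 and 15.4 CPM in THY-Tau22.

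Irf8, a transcription factor of the myeloid lineage, had 5.10 and 4.48 CPM in WT VEH, 6.71 and 7.47 CPM in TAU VEH and 6.79 and 6.58 CPM in TAU MOL. The home-cage WT libraries lay between these groups, at 5.66 to 5.85 CPM. It rose by 0.56 ± 0.12 in TAU VEH (edgeR adjusted p = 0.011) and by 0.48 ± 0.12 in TAU MOL (edgeR adjusted p = 0.0444).

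Mpeg1, which encodes the pore-forming perforin-2 of macrophages, had 20.2 and 21.8 CPM in WT VEH and 28.4 and 36.9 CPM in TAU VEH. Its log2 fold change was 0.63 ± 0.14 (edgeR adjusted p = 0.010) in TAU VEH and 0.39 ± 0.14 in TAU MOL (edgeR adjusted p = 0.135). The TAU MOL libraries, at 30.0 and 24.8 CPM, also lay above all WT libraries. Itgb2, the beta chain of leukocyte integrins and of the complement receptor CR3, had 6.57 and 7.84 CPM in WT VEH and 9.91 and 9.93 CPM in TAU VEH. It rose by 0.46 ± 0.14 (edgeR adjusted p = 0.049) and overlapped the home-cage WT libraries in TAU MOL.

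Osmr, the receptor for oncostatin M, which reactive astrocytes carry, had 4.25 and 3.95 CPM in WT VEH, 6.38 and 6.83 CPM in TAU VEH and 6.32 and 5.54 CPM in TAU MOL. All 4 TAU libraries were above the 5 WT libraries, the highest of which had 4.25 CPM. It rose by 0.68 ± 0.16 in TAU VEH (edgeR adjusted p = 0.0154), and in TAU MOL the log2 fold change was 0.53 ± 0.16 (edgeR adjusted p = 0.0812). Slc11a1, a metal transporter of phagosomes, had 2.59 and 3.28 CPM in WT VEH, 3.83 and 4.23 CPM in TAU VEH and 4.85 and 4.74 CPM in TAU MOL. It was called in TAU MOL only (log2 fold change 0.71 ± 0.17, edgeR adjusted p = 0.0316) and stood at 0.45 ± 0.17 in TAU VEH (edgeR adjusted p = 0.107), and the difference between these groups did not pass the test (0.26 ± 0.16, edgeR adjusted p = 0.884).

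Of the other immune members that separated all TAU from all WT libraries, none passed the test against WT VEH. They were Lag3, the lysosomal glycoprotein Cd68, the complement receptor C3ar1, the inhibitory Fc receptor Fcgr2b and AF251705. C3ar1 had 1.72 and 2.12 CPM in WT VEH, 2.70 and 3.13 CPM in TAU VEH and 3.00 and 2.99 CPM in TAU MOL, with an edgeR adjusted p of 0.0695 and 0.0821. Cd68 had log2 fold changes of 0.30 ± 0.12 and 0.36 ± 0.12 (edgeR adjusted p = 0.135 and 0.111). Ccl6 had 1.43 and 1.70 CPM in WT VEH, 2.11 and 2.79 CPM in TAU VEH and 1.58 and 1.45 CPM in TAU MOL, and passed neither test (edgeR adjusted p = 0.0792 and 0.950). The class I genes H2-Q4 and H2-T23 had log2 fold changes of 0.03 ± 0.23 and 0.10 ± 0.20 in TAU VEH. The class I gene H2-T24 had 0.57 ± 0.23 in TAU VEH (edgeR adjusted p = 0.127, from 0.033 to 0.765 over the alternatives) and 0.41 ± 0.22 in TAU MOL (edgeR adjusted p = 0.356).

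**Figure D2:**
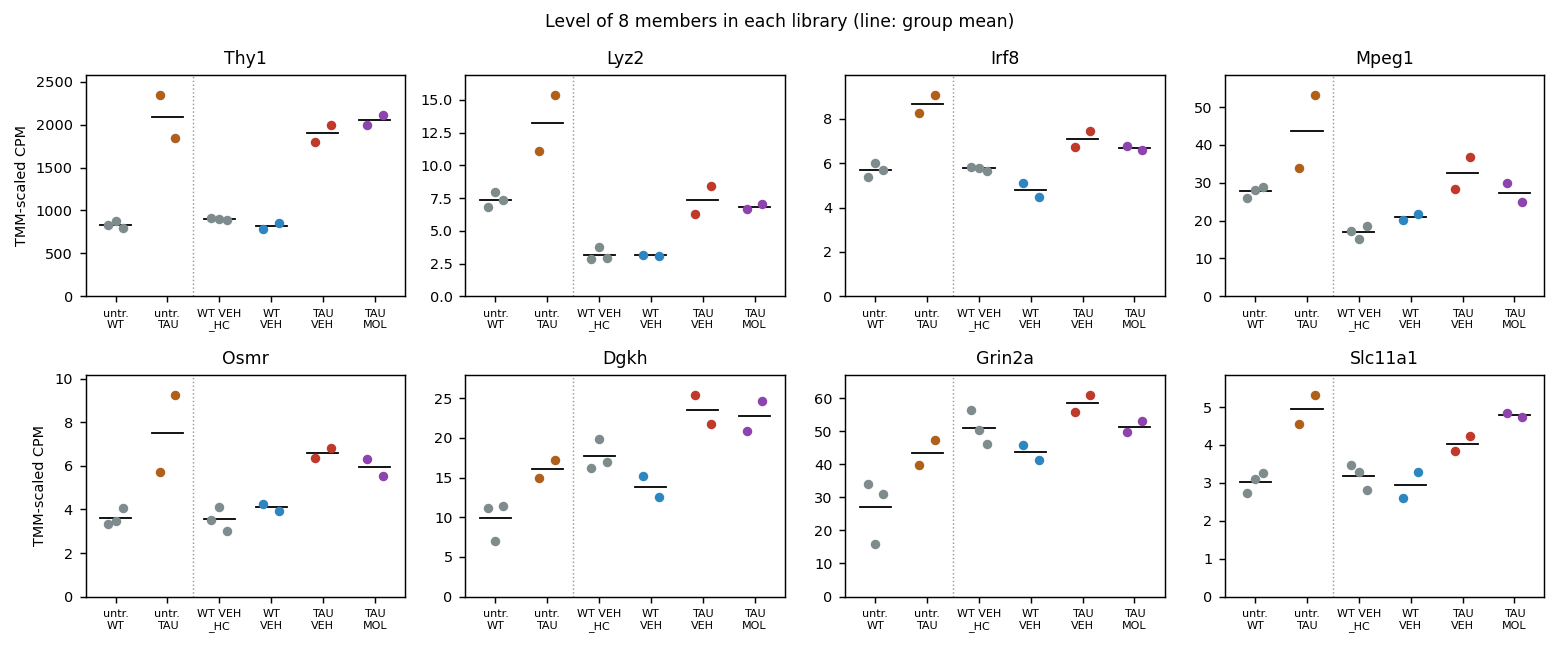
Level of 8 members in every library as TMM-scaled CPM on axes that start at 0, 1 point per library, with a line at each group mean and a dotted line between the untrained (untr.) and the learning table, which were scaled apart. In Thy1, Lyz2, Irf8, Mpeg1, Osmr, Dgkh and Slc11a1 the TAU points of the learning table lie above its WT points, while in Grin2a the WT VEH_HC points reach from 46.3 to 56.6 CPM, among the TAU points.

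The tissue label was met by markers of hippocampal cells, with dentate granule markers summing to 608 to 910 CPM over the 14 libraries. CA1 pyramidal markers, of which no member is one, moved with the trained groups. They summed to 1220 and 1140 CPM in WT VEH, 689 and 736 CPM in TAU VEH and 989 and 977 CPM in TAU MOL, and in TAU VEH against WT VEH 6 of 10 were called lower and 0 higher with a median log2 fold change of -0.67. The part of this shift in the members' values was not tested. Lists of cell type and pathway genes are given with the members they hold. Homeostatic microglia markers, of which no member is one, showed 0 of 17 called higher and 2 called lower in TAU VEH against WT VEH with a median log2 fold change of 0.060, and their summed level ranged from 627 to 643 CPM for WT VEH, from 590 to 639 CPM for TAU VEH and from 579 to 652 CPM for TAU MOL. Disease-associated microglia markers, which hold Ccl6, Cd68, Lag3 and Lyz2, showed 5 of 28 called higher and 0 lower with a median of 0.152. Their summed level, by contrast, was 6060 and 5930 CPM in WT VEH and 5290 and 5630 CPM in TAU VEH, and among untrained mice 7170 to 7700 CPM in WT and 7160 and 6040 CPM in THY-Tau22. In the interferon list, with Irf8, 1 of 29 was called higher and 0 lower with a median of 0.192, and in the antigen presentation list, with H2-Q4 and H2-T23, 0 of 23 were called higher and 2 lower with a median of 0.026. In the astrocyte list, with Osmr, 5 of 24 were called higher and 2 lower with a median of 0.171. The chemokine list, with Ccl6, had 2 of 13 higher and 1 lower with a median of 0.614, and the lysosome list, with Cd68, had 1 higher and 3 lower with a median of -0.05. The endothelial and pericyte list, with Abcc9, had 0 of 16 called in either direction and a median of -0.092. The transgene cassette list, with Thy1, had 1 of 2 called higher. The members in these lists were chosen for the untrained contrast, so they are no separate evidence of the lists' direction. Of the lists without a member, immediate early genes had 1 of 22 higher and 8 lower, neocortex and subiculum 1 of 10 higher and 4 lower, interneurons 0 of 10 higher and 3 lower, and heat shock genes 1 of 25 higher and 3 lower. CA2 and CA3 markers had 2 of 12 higher and 0 lower, dentate granule markers 1 of 10 higher and 0 lower, thalamus markers 1 of 12 in each direction, and oligodendrocyte precursors 0 of 6 higher and 1 lower. Oligodendrocyte markers, blood genes and nuclear long noncoding RNAs had 0 called in either direction.

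The neuronal members held 4 of 18 called higher and 1 called lower in TAU VEH against WT VEH, with a median of 0.314, beside 3.61% higher and 10.8% lower of all genes. The group holds 4 enzymes, Dgkh, Prkaa2, Pde11a and Hs6st3, of which the first pair was called higher, and the 14 others held 2 called higher and 1 lower with a median of 0.294. For TAU MOL against WT VEH 1 was called higher and none lower, yet all 18 had a log2 fold change above 0, with a median of 0.193. Of all genes 0.612% were called higher in that comparison, 5.02% lower, and 50.4% were above 0. Their median exonic GC content was 49.6%, beside 51.6% over all members.

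Dgkh, the diacylglycerol kinase eta gene, had 15.2 and 12.5 CPM in WT VEH, 25.4 and 21.7 CPM in TAU VEH and 20.9 and 24.7 CPM in TAU MOL. The home-cage WT libraries had 16.2 to 19.8 CPM, below all TAU libraries. It rose by 0.77 ± 0.13 in TAU VEH (edgeR adjusted p = 0.003) and by 0.72 ± 0.13 in TAU MOL (edgeR adjusted p = 0.0136).

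Grin2a had 45.9 and 41.4 CPM in WT VEH and 55.9 and 61.0 CPM in TAU VEH, a rise of 0.42 ± 0.10 (edgeR adjusted p = 0.0153). WT VEH_HC overlapped TAU VEH, at 46.3 to 56.6 CPM. Cacna1e, the R-type calcium channel subunit, had 241 and 226 CPM in WT VEH and 299 and 284 CPM in TAU VEH, a rise of 0.32 ± 0.08 (edgeR adjusted p = 0.0225), and again WT VEH_HC lay as high, at 281 to 332 CPM. Cacna1e was called lower in WT VEH than in WT VEH_HC (log2 fold change -0.40 ± 0.07, edgeR adjusted p = 0.0134).

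Prkaa2, the catalytic alpha-2 subunit of AMP-activated kinase, had 20.5 and 20.7 CPM in WT VEH and 26.0 and 28.0 CPM in TAU VEH, a rise of 0.38 ± 0.08 (edgeR adjusted p = 0.0059). This call was lost with GC content and length corrected (edgeR adjusted p = 0.336), with the choroid plexus covariate described below (0.259) and without TAU VEH replicate 2 (0.0575). WT VEH_HC had 20.9 to 22.1 CPM and TAU MOL 23.3 and 23.5 CPM, above all WT libraries. The related subunits Grin2b and Grin3a were not called, with log2 fold changes of 0.38 ± 0.14 and 0.24 ± 0.11 (edgeR adjusted p = 0.105 and 0.195). Cdh4, the R-cadherin gene, fell by 0.31 ± 0.08 in TAU VEH (edgeR adjusted p = 0.0271), from 15.2 and 15.7 CPM to 12.3 and 12.5 CPM, while TAU MOL had 15.9 and 16.6 CPM.

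Outside these groups, Greb1l had 4.83 and 5.24 CPM in WT VEH and 7.23 and 7.66 CPM in TAU VEH, a rise of 0.56 ± 0.12 (edgeR adjusted p = 0.00939). Its home-cage values of 6.42 to 6.68 CPM lay between. Sema3d, a secreted semaphorin, had 2.90 and 3.13 CPM in WT VEH and 4.03 and 4.60 CPM in TAU VEH, a rise of 0.51 ± 0.15 (edgeR adjusted p = 0.048), with every TAU library above every WT library.

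Exonic GC content moved with genotype in these libraries. The rank correlation across genes between GC content and a gene's deviation from its mean over the 9 libraries ranged from 0.085 to 0.455 for the 5 WT libraries and from -0.617 to -0.396 for the 4 TAU libraries. Among untrained mice it ranged from 0.067 to 0.323 for WT and was 0.481 and -0.600 for THY-Tau22. Within the tercile of genes lowest in GC the median log2 fold change of TAU VEH against WT VEH was 0.384 for the 27 members and 0.141 for all genes. In the middle tercile it was 0.233 for 32 members and 0.024 for all genes, and in the tercile highest in GC 0.095 for 37 members and -0.199 for all genes. The members thus lay above the genes of like GC content in each class, by description. With GC content and length corrected, 8 members were called higher and 5 lower, while the shares of all genes fell to 0.465% higher and 2.18% lower. Of the 12 above, Thy1, Lyz2, Dgkh, Irf8, Grin2a and Cacna1e were among the 8. The other 6 were no longer called, with edgeR adjusted p-values of 0.0637 (Itgb2), 0.0787 (Mpeg1), 0.102 (Osmr and Greb1l), 0.336 (Prkaa2) and 0.371 (Sema3d).

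Contrary to the untrained table, 5 members lay far lower in trained THY-Tau22 than in trained WT. They were Slc4a5, the retinoid flippase gene Abca4, Ace, Sema3b (a secreted semaphorin) and Nid2, a basement membrane protein. The log2 fold changes in TAU VEH against WT VEH were -3.03 ± 0.39, -2.18 ± 0.18, -1.95 ± 0.20, -1.64 ± 0.20 and -1.23 ± 0.23, with edgeR adjusted p-values from 0.000443 to 0.00473. Against WT VEH, the TAU MOL values were -1.55 ± 0.35, -1.04 ± 0.17, -0.91 ± 0.19, -0.85 ± 0.19 and -0.94 ± 0.23, with edgeR adjusted p-values from 0.00996 to 0.0343.

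What stood apart in these 5 genes was trained WT. Slc4a5 reached 28.5 and 15.3 CPM in WT VEH. The home-cage libraries had 0.865, 0.624 and 1.89 CPM, TAU VEH 2.01 and 3.59 CPM, and TAU MOL 7.43 and 7.53 CPM. Abca4 had 19.4 and 15.7 CPM in WT VEH, 1.88 to 3.03 CPM in WT VEH_HC, 3.65 and 4.11 CPM in TAU VEH and 8.77 and 8.25 CPM in TAU MOL. Ace had 80.0 and 54.7 CPM in WT VEH, 15.7 to 20.8 CPM in WT VEH_HC, 14.6 and 20.7 CPM in TAU VEH and 38.4 and 33.5 CPM in TAU MOL. In each of these genes WT VEH was highest and TAU MOL next.

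The markers of choroid plexus and ependyma moved with them. Their mean log2 CPM over 17 listed genes, Slc4a5 among them, reached 4.50 and 4.01 for WT VEH. It stood at 1.36, 0.871 and 2.23 for WT VEH_HC, at 2.36 and 2.54 for TAU VEH and at 3.46 and 3.23 for TAU MOL. Among untrained mice their summed level was 332 to 472 CPM for WT, and 441 and 1360 CPM for THY-Tau22. Of the 17, 13 were called lower and 0 higher in TAU VEH against WT VEH, with a median log2 fold change of -2.03. Over the 9 libraries the log2 level of Slc4a5 correlated with that mean at r = 0.992, Abca4 at 0.959, Ace at 0.870, Sema3b at 0.836 and Nid2 at 0.719, where the points share groups. Outside these 5, Lgals3bp had r = 0.850 and Cacna1e r = -0.955. Ttr, Kcne2, Mfrp and Kl had been set aside by name from the members. With the choroid plexus mean as a covariate no member and none of all 16820 genes was called in TAU VEH against WT VEH, the covariate being itself much higher in WT VEH. In TAU MOL against WT VEH it left 1 gene called higher, Thy1, and 1 lower of all genes. The part of choroid plexus tissue in these values was not tested beyond that.

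**Figure D3:**
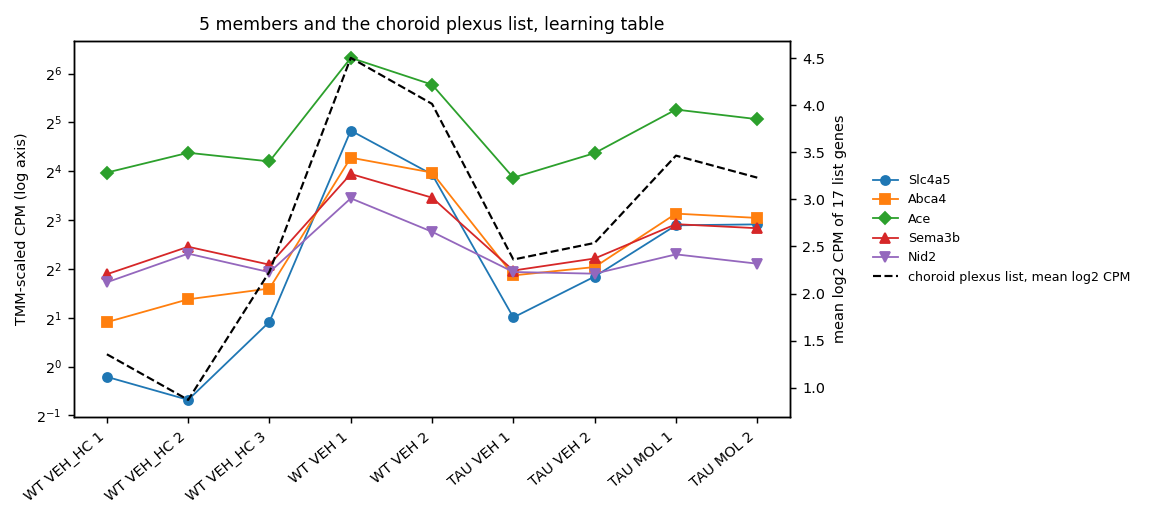
Level of Slc4a5, Abca4, Ace, Sema3b and Nid2 in the 9 learning libraries as TMM-scaled CPM (left axis, log scale) with the mean log2 CPM of the 17 choroid plexus and ependyma genes (right axis, dashed). Lines join the values of 1 gene, libraries of a group have no order, and all 5 genes and the list peak in the WT VEH libraries.

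The 10 ribosomal RNA-related and short noncoding loci were chosen for their height in untrained THY-Tau22, and edgeR called none of them in any learning comparison as fitted here. Without a filter on low counts AY036118, Gm12913 and Mir5105 were called higher in TAU VEH than WT VEH, Mir5105 in TAU MOL than WT VEH, and Gm12563, Gm15564, Gm15662, Lars2, Mir5102 and Mir5105 in WT VEH than WT VEH_HC. In the other direction it called AY036118 and Gm12913 lower in TAU MOL than TAU VEH, and Gm15564 lower in TAU MOL than WT VEH. Their summed level in untrained mice was 3330, 3130 and 2960 CPM in WT and 6720 and 4700 CPM in THY-Tau22. In the learning table WT VEH_HC had 700, 1200 and 1160 CPM, WT VEH 1360 and 1240 CPM, TAU VEH 998 and 1870 CPM, and TAU MOL 964 and 1510 CPM. Libraries of the same group thus differed as much as the groups did. The median log2 fold change of the 10 was 0.164 in TAU VEH and -0.036 in TAU MOL, both against WT VEH.

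The 2 loci printed above that share 29 bases moved in parallel. Gm12563 had 130 and 122 CPM in WT VEH and 97.2 and 189 CPM in TAU VEH, and Gm15662 had 74.4 and 66.6 CPM and 55.2 and 102 CPM. Mir5105, which shares no long run with either, followed the same libraries, with 85.3 and 78.1 CPM in WT VEH and 70.5 and 127 CPM in TAU VEH. A lack of shared runs between these loci does not tell whether Mir5105 or Mir5102 matches another part of the ribosomal RNA. Gm12913 had the largest log2 fold change of the 10 in TAU VEH, at 0.52 ± 0.28 (edgeR adjusted p = 0.261). It was called without a filter and without TAU VEH replicate 1, and its adjusted p over the alternatives went down to 1.44e-07. The library with the highest summed level in the learning table, TAU VEH replicate 2, was also the shallowest, at 24693713 counts beside 38528559 to 52180305 in the others, and the part of depth or ribosomal RNA carry-over in these values was not tested.

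**Figure D4:**
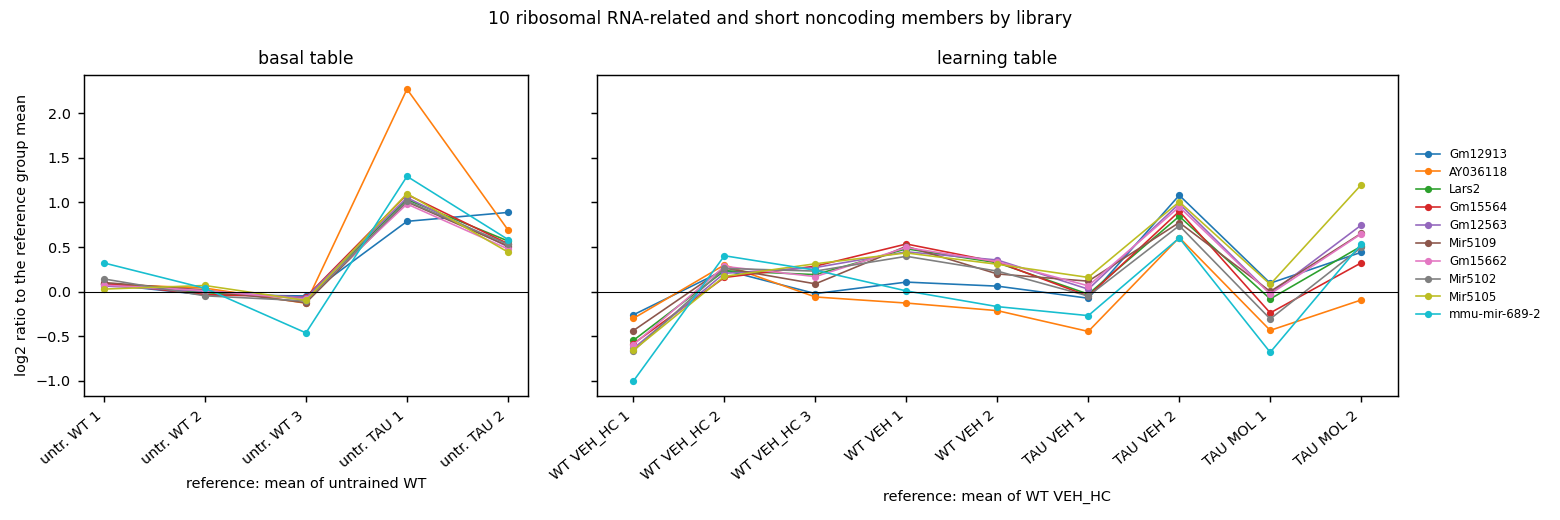
The 10 ribosomal RNA-related and short noncoding members in each library of the untrained (left) and the learning table (right), as log2 ratio to the mean of untrained WT or of WT VEH_HC. Lines join the values of 1 locus. All are up in both untrained THY-Tau22 libraries, AY036118 (593 and 198 CPM) and Gm12913 (445 and 477 CPM) there run apart from the others, and the replicates of TAU VEH and of TAU MOL differ.

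The matrix and guidance genes did not go one way. Of 9, 1 was called higher (Sema3d) and 2 lower (Sema3b and Nid2) in TAU VEH against WT VEH, and 3 had a log2 fold change above 0, with a median of -0.051. Of all genes 3.61% were called higher, 10.8% lower, and 50.7% were above 0. The fibrillin gene Fbn1 had 9.57 and 10.4 CPM in WT VEH and 11.0 and 8.00 CPM in TAU VEH, overlapping values with a log2 fold change of -0.05 ± 0.16. Fbln2 and Crtap had log2 fold changes of -0.25 ± 0.16 and -0.20 ± 0.15. Zbtb16, among the 10 members with the highest ratio, had 58.5 and 50.4 CPM in WT VEH and 57.8 and 44.5 CPM in TAU VEH, with a log2 fold change of -0.08 ± 0.14 (edgeR adjusted p = 0.764). Slc15a3, next to Thy1 by ratio, had 0.23 ± 0.18 (edgeR adjusted p = 0.485), and Lag3 0.21 ± 0.09 (edgeR adjusted p = 0.145). Myof and Pde11a had 0.14 ± 0.32 and 0.33 ± 0.19. Over the 96 members the log2 ratio of the untrained group means and the log2 fold change of TAU VEH against WT VEH gave r = -0.104 and a rank correlation of 0.206, a description across genes. For TAU MOL against WT VEH these were -0.115 and -0.021. Without Slc4a5, Abca4, Ace, Sema3b and Nid2, a set removed by the same fold change, they were 0.371 and 0.291 for TAU VEH and 0.132 and 0.027 for TAU MOL, and without Thy1 as well 0.287 and 0.267, and -0.012 and -0.004.

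In TAU MOL against TAU VEH no member was called higher or lower, and neither was any of all genes tested (0.0% in each direction). At an unadjusted edgeR p under 0.05 there were 11 of 96 members, 7 higher and 4 lower, beside 1064 of 16820 genes, 643 higher and 421 lower. Without Slc4a5, Abca4, Ace, Sema3b and Nid2, a set removed after the values were seen, 3 of 91 members were higher and 4 lower. DESeq2 called 2 members higher, Abca4 and Ace, beside 33 higher and 23 lower of all genes (0.196% and 0.137%). The median log2 fold change of the members was -0.020 beside 0.009. This comparison shares TAU VEH with the first.

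In WT VEH against WT VEH_HC, which compares trained with home-cage WT, 7 members (7.29%) were called higher, beside 5.35% of all genes, and 3 (3.12%) lower, beside 3.05%. The 7 were Slc4a5, Abca4, Ace, Sema3b and Nid2, Ccl6 (0.80 ± 0.21, edgeR adjusted p = 0.0423) and the galectin-binding protein Lgals3bp (0.41 ± 0.10, edgeR adjusted p = 0.0348). Slc4a5 rose by 4.28 ± 0.36 and Abca4 by 2.80 ± 0.16 (edgeR adjusted p = 0.0001 and 1.24e-05). The 3 were the phospholipase gene Pla2g4e (-1.08 ± 0.17, edgeR adjusted p = 0.00576), the predicted gene Gm3764 (-0.92 ± 0.19, edgeR adjusted p = 0.0213) and Cacna1e. Of the 18 neuronal members 16 had a log2 fold change below 0 in this comparison, with a median of -0.215.

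The promoters were searched on both strands for short motifs from 250 bases before to 50 bases after each gene start (mm9). The AP-1 motif TGANTCA, which reads the same on either strand, was in 5 of 29 myeloid and immune promoters (17.2%), in 7 of 96 members (7.29%) and in 5.20% of the promoters of all genes tested. The motif TTCNNNGAA of interferon gamma activation was in 3 of the 29 (10.3%), in 5 members (5.21%) and in 6.79% of all. The ETS and PU.1 motif GAGGAAGT was in 1 of the 29 (3.45%) and in 2.75% of all. In the members the serum response CArG motif was in 3 promoters, the cAMP response element TGACGTCA in 1, the interferon-stimulated core in 4 and the E-box CACGTG in 6, beside 1.23%, 2.83%, 3.24% and 9.07% of all. No member held the NF-kB or heat shock motif, which were in 0.238% and 0.399% of all. Upstream sequences of Irf8 and Cd68 are shown because both genes kept every TAU library above every WT library and each holds a motif more than once. Irf8 (chr8:123260008-123260257, plus strand) has 2 matches to TTCNNNGAA, in capitals, and Cd68 (chr11:69479656-69479905, minus strand) has 2 matches to TGANTCA.
Irf8: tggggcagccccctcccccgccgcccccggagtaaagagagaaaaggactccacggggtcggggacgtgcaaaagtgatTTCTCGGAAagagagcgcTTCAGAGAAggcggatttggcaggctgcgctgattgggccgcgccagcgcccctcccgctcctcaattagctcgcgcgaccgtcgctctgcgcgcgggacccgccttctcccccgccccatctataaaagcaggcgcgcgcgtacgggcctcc
Cd68: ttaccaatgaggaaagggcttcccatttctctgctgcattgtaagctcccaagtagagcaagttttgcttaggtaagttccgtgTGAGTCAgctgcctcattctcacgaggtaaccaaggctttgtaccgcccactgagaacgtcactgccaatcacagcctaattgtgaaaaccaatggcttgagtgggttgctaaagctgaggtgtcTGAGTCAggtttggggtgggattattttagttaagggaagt

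The calls rested on few libraries. In TAU VEH against WT VEH 6 members were called higher without WT VEH replicate 1, 5 without WT VEH replicate 2, 7 without TAU VEH replicate 1 and 3 without TAU VEH replicate 2. The shares of all genes called higher fell as well, to between 0.584% and 1.14%. Thy1, Lyz2 and Dgkh were called in each of these, and were the 3 in the last, while Osmr, Sema3d, Itgb2 and Cacna1e were called in none. DESeq2 called neither Sema3d nor Cdh4 (DESeq2 adjusted p = 0.0953 and 0.0676), and over the 13 alternatives their adjusted p ran from 0.0127 to 0.371 and from 0.0251 to 0.371. In TAU MOL against WT VEH, leaving out any 1 of the WT VEH or TAU MOL libraries left Thy1 as the only gene called higher of all genes tested. The share of members with all TAU above all WT libraries was 20.8% to 23.96% when any 1 learning library was left out. Leaving out a library can only keep or raise that share, so this range does not measure its stability.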

How the data were processed

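RNA-seq of dorsal hippocampus was read from 14 libraries, 5 untrained and 9 of the learning experiment. Per the submitters' processing notes, reads were aligned to mm9 with TopHat2 2.0.10 and Bowtie2 2.1.0 and counted with HTSeq 0.5.4p3. The authors deposited raw counts per gene, used for all tests, and a normalized signal (each library's counts over its own scaling factor), used only to choose the members. Counts summed to 28639121 to 37681155 per untrained library and 24693713 to 52180305 per learning library. Members and gene lists were chosen with earlier results of these data known.

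The 9 learning libraries were fitted together with edgeR 4.0.16 in R 4.3.3 (TMM, filterByExpr, quasi-likelihood F test, Benjamini-Hochberg over 16820 genes), and the script was tested on simulated data. DESeq2 1.42.0 was the other tool. The untrained contrast chose the members and was not tested. The learning table held 138 lines without values, left out. Genes named were the 10 highest by ratio, members called in each comparison (12 highest, 6 lowest, up to 6 elsewhere), members of fixed lists and those at the limit; others were named after their values were seen. The GENCODE annotation of NCBIM37 gave positions and GC content (99.8% of genes). The result of 1 of the 23 gene lists is not reported here.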

Additional observations from a re-analysis of the deposited data

How the results depend on the processing

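In TAU VEH against WT VEH the members called higher (12.5% in the reported fit) came to 32.3% with library size alone, 22.9% without a filter beyond 1 count, 23.96% with only the groups compared and 0.0% with the choroid plexus covariate, beside 15.3%, 3.27%, 7.10% and 0.0% of all genes. Those called lower (6.25%) came to 0.0% with that covariate and 1.1% without the 5 members called lower there and higher in WT VEH than in WT VEH_HC, a set added after seeing the data that takes out 5 of the 6 called lower by construction. The median log2 fold change (0.25) was 0.397 with library size alone, which moved the median of all genes to 0.151, and 0.177 with the covariate. Leaving out 1 library in turn gave 3.12% to 7.29% called higher and medians from 0.131 to 0.326, lowest without TAU VEH replicate 2. Against WT VEH, the members called higher in TAU MOL (5.21%) came to 12.5%, 11.5%, 10.4% and 1.04% under those same 4 settings (all genes 4.50%, 1.34%, 2.1% and 0.00595%). With GC and length corrected they came to 3.12% (all genes 0.0477%), and among the top 50 to 10.6%. Of the 28 members to which DESeq2 gave an adjusted p 10.7% were higher, beside 1.61% of all genes, with or without one. Those called lower (5.21%) came to 0.0% with the covariate (all genes 0.00595%) and 1.04% with GC and length corrected (all genes 0.137%). Leaving out 1 library gave 1.04% higher and 0.0% lower. The median (0.207) was 0.328 with library size alone (all genes 0.123) and 0.132 with the covariate. In TAU MOL against TAU VEH, where none was called, 5.21% were higher and 2.08% lower without a filter (all genes 0.551% and 0.347%). With only the groups compared 4.17% were higher (all genes 0.251%). Of the members with a DESeq2 adjusted p 2.47% were higher, beside 0.196% of all genes, with or without one. The median was 0.052 with the covariate and -0.0374 to 0.0867 with 1 library left out. The causes were not tested.

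In WT VEH against WT VEH_HC the members called higher (7.29%) came to 18.8% without a filter (all genes 6.06%) and 0.0% with the covariate, where no gene was called (4.17% to 8.33% with 1 library left out), and those called lower (3.12%) to 11.5%, 0.0%, 1.04% with only the groups compared, 0.0% among the top 50, 7.65% among the top 200, 5.26% with DESeq2 and 0.0% to 10.4% with 1 library left out. The shares of all genes called lower in this comparison were 3.05% as fitted, 4.3% without a filter and 0.463% with only the groups compared. With DESeq2 the share was 4.5% of all genes, with or without an adjusted p, so the 5.26% of members lay near it. With 1 WT VEH_HC library left out, 1.55% to 5.97% of all genes were called lower. Libraries with the same replicate number gave correlations of deviations from -0.039 to 0.243. In groups of 2 libraries the deviations mirror each other, so this check cannot decide whether the numbers pair the libraries. With the replicate block 12.5% were called lower in this comparison (all genes 6.59%), while no other count of members moved by over 1.5 times. Of all genes, the block moved those called higher from 900 to 1892 and lower from 513 to 1108 in this comparison, and higher from 103 to 230 in TAU MOL against WT VEH. The median (-0.088) was 0.0998 with the covariate and -0.0122 among the top 50. The share of members with all TAU above all WT libraries ranged from 19.4% to 27.7% over the alternatives. Those that leave out a library can only keep or raise it. With 2 libraries in most groups, genes at a few CPM are limited by counting as well as by the spread.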
